A study of Mus musculus with 13 samples.

Results

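Complement genes were followed in libraries labelled as mesenchymal stromal cells (MSCs), the connective-tissue cells of bone and marrow, sorted from mice. The pre-leukemic libraries carried leukocyte transcripts and few stromal ones, as given below. The set held 9 genes taken by symbol from a table of 33432 named gene entries: the proteases C1ra, C1s1, C2 and Cfb, the thioester proteins C3 and C4b, and the regulators Serping1, Clu and Cfp. All 9 were found and all 9 passed the filter on low values, Cfp only with the pre-leukemic libraries, where it was high. The values were FPKM, which counts fragments relative to gene length and library size, in 13 RNA-seq libraries of polyadenylated RNA from C57BL/6 mice. Of these, 4 were recovered, which matches the pre-leukemic mice treated with MSCs in the labels, 6 were pre-leukemic, and 3 were healthy. All cells came from a mixture of nucleated cells of marrow and compact bone. The sources used here give neither the lesion of the pre-leukemic mice nor the animals' age, the source and dose of the MSCs given, or the sort's surface markers. They also do not say whether replicates were separate animals; if not, the p-values cover only technical spread between libraries.

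Complement is a cascade of plasma proteins that marks microbes and dying cells for uptake and recruits leukocytes. In the classical pathway the proteases C1r and C1s, bound to C1q, cut C4 and C2, whose fragments form an enzyme that cuts C3. In the alternative pathway factor B joins a C3 fragment to make a second C3-cutting enzyme, which properdin holds together. Most plasma complement comes from liver, but fibroblasts and other stromal cells are known to make early components, and properdin is made mainly by leukocytes.

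Healthy libraries 1 and 3 differed by little more than sampling noise, with a chi-square per gene of 1.21 over 212 genes with 100 to 1000 estimated reads (chi-square p = 0.0204), where the other pairs of libraries within a group reached at least 21.8. Over 433 genes with 10 to 100 estimated reads the value was 1.22 (chi-square p = 0.0011), against at least 9.73 in the other pairs. Healthy 1 and 3 were averaged and counted as 1 sample. Means ± SD are therefore over 4 recovered, 6 pre-leukemic and 2 healthy samples, while levels of single libraries are given for all 13. No read counts were used, and steps between low values put 3 reads on 1 kb at 1.045 to 1.923 FPKM in recovered, 0.494 to 0.723 in pre-leukemic and 0.942 to 1.159 in healthy libraries. Those floors cover counting error only. Of each library's total FPKM, immunoglobulin genes took 0.006 to 0.134% in recovered, 54.9 to 80.5% in pre-leukemic and 0.019 to 0.03% in healthy libraries.

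The libraries labelled as pre-leukemic carried leukocyte transcripts and few stromal ones. The summed level of 14 stromal markers was 6595 to 9379 FPKM in recovered, 301 to 1069 in pre-leukemic and 16824 to 18467 in healthy libraries. Dcn alone was at 3830.4 to 6383 FPKM in recovered, 193 to 779 in pre-leukemic and 11752 to 12429 in healthy libraries. Cxcl12 was higher by mean in recovered (733 ± 176 FPKM) than in healthy samples (439 ± 97.1), while Dcn was lower. None of the 14 passed between recovered and healthy samples, with a median log2(FPKM + 1) change of -0.65. The summed level of 10 pan-leukocyte markers was 75.2 to 238 FPKM in recovered, 2657 to 3341 in pre-leukemic and 120.3 to 162 in healthy libraries. Against healthy samples, pre-leukemic samples were higher in 10 of 10 pan-leukocyte, 9 of 9 plasma cell, 10 of 12 tested neutrophil, 7 of 9 T and NK cell and 5 of 9 tested monocyte and macrophage markers, and lower in 11 of 14 stromal markers. B cell markers went both ways. Of 8, Cd79a, Cd79b and Ms4a1 were higher in pre-leukemic than in healthy samples, and Vpreb1, Igll1, Ebf1 and Pax5 were lower. In recovered against pre-leukemic samples these 7 passed in the opposite directions. Vpreb1, Igll1, Ebf1 and Pax5 thus moved as most of the complement genes did. The 8 B cell markers summed to 91.7 to 897 FPKM in recovered, 382 to 549 in pre-leukemic and 247 to 264 in healthy libraries, with Igll1 listed at 0 in all pre-leukemic and Ms4a1 in all healthy libraries. Plasma cell markers summed to 78 to 166 FPKM in recovered, 46629 to 72874 in pre-leukemic and 145 to 181 in healthy libraries, and neutrophil markers to 15.9 to 644 in recovered, 3132 to 15279 in pre-leukemic and 54.6 to 89 in healthy libraries. The 12 monocyte and macrophage markers summed to 18.6 to 112 FPKM in recovered, 3411 to 5167 in pre-leukemic and 25.2 to 27.7 in healthy libraries, with Marco, Mertk and Cx3cr1 listed at 0 in all pre-leukemic libraries. Ly6c2 alone was at 2135 to 3728 FPKM in pre-leukemic libraries. There Csf1r was at 0 to 2.2 FPKM and Emr1 at 0 to 0.249. Csf1r, Cd68, Cd14 and Mertk were tested and not called against healthy samples. In these bulk libraries fewer stromal cells and less RNA per stromal cell cannot be told apart. Adult globins and other erythroid markers summed to 1650.3 to 2638 FPKM in recovered, 0 to 6.51 in pre-leukemic and 35.4 to 49.7 in healthy libraries. The part of these markers in the results below was not tested.

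The genes lie in a few groups on the GRCm38 (mm10) genome. C1ra (chromosome 6, 124512405 to 124523443, plus strand) and C1s1 (chromosome 6, 124530345 to 124542359, minus strand) are neighbours that face each other. C4b (chromosome 17, 34728380 to 34743882), Cfb (chromosome 17, 34856374 to 34862518) and C2 (chromosome 17, 34862604 to 34898265) stand on the minus strand of the major histocompatibility region, and C3 (chromosome 17, 57203970 to 57228136) lies farther along the same chromosome. Serping1 (chromosome 2, 84765387 to 84775444), Clu (chromosome 14, 65968483 to 65981547) and Cfp (chromosome X, 20925454 to 20931555) stand alone.

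RefSeq promoter windows on GRCm38.p6 were given for 4 of the 9 genes. They are shown because 3 of these genes were low and 1, Cfp, was high in pre-leukemic samples. Each sequence is the 250 bases before the RefSeq transcription start, 5′ to 3′ on the gene's own strand. Capitals mark the letters TTGCNNAA on either strand, a short form of the C/EBP motif that was picked after the sequences were seen. For C1ra the RefSeq start lies within the gene as placed above from 124512405, so most of its window is inside those bounds. The windows are chr17:57228137-57228386 on the minus strand for C3, chr6:124512371-124512620 on the plus strand for C1ra, chr6:124542360-124542609 on the minus strand for C1s1 (the first of its 2 windows) and chrX:20931556-20931805 on the minus strand for Cfp.
C3: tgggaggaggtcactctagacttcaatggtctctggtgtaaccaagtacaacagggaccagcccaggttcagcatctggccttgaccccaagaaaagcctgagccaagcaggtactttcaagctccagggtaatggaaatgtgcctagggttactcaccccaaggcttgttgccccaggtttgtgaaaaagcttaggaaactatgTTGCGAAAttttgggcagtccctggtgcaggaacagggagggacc
C1ra: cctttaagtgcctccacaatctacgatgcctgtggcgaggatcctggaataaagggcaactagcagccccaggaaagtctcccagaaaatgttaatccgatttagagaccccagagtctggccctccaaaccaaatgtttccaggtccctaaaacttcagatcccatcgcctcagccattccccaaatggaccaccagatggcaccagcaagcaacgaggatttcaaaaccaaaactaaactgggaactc
C1s1: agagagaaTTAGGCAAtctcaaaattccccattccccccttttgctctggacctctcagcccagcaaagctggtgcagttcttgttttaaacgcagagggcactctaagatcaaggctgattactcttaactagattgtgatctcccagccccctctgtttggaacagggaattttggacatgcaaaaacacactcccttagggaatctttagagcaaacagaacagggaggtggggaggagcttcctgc
Cfp: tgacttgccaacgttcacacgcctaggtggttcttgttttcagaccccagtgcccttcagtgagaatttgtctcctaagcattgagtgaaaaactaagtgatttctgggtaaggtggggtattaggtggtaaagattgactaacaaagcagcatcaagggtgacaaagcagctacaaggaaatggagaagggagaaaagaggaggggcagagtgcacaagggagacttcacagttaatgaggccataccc

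Short motifs were searched on both strands of the full windows of 300 bases, which reach 50 bases past the RefSeq start. The letters TTGCNNAA stand in the C3 window at -45 to -38 relative to the start, in the C1s1 window shown at -242 to -235 relative to it, and in the C1ra window past the start, and 10.8% of all 32817 RefSeq windows hold them. The letters TTCNNNGAA, the gamma-activated site of interferon signalling, stand in the C1ra window at 33 to 41 bases past the start, where the C/EBP letters lie at 17 to 24 without overlap, and 8.3% of all windows hold them. The interferon-stimulated response element core (3.4% of all windows) and a kappa-B form (1.6%) were in none of these windows. A match is a description of letters, not of a bound site.

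Near-identical copies and overlapping genes limit some of the values. Of the 50-base windows of the longest coding transcript, 48% of those of C1ra are also in C1rb, 24.3% of those of C1s1 in C1s2, and 35.2% of those of C4b in C4a, while C3, Serping1, Clu and Cfp share none with another gene. C1s2 was at 0 to 0.143 FPKM across the 13 libraries and C4a at 0 to 19.2. No value was listed for C1rb, so reads from the windows it shares with C1ra cannot be told apart from those of C1ra. Gm20547, a gene model that runs through both Cfb and C2 and holds 81.4 and 58% of their windows, was at 1.21e-12 FPKM or less in every library, so the table gives nearly all reads there to Cfb and C2. Gm16567, antisense to C1s1, was at 1.32 to 19.8 FPKM in recovered, 0.63 to 2.96 in pre-leukemic and 8.36 to 12.2 in healthy libraries, and without strand its reads and those of C1s1 cannot be told apart.

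C1ra and C1s1 encode the proteases that start the classical pathway. C1ra was at 79, 89.2, 214 and 105 FPKM in recovered libraries, 2.08, 3.3 and 8.21 FPKM (lowest, median and highest) in pre-leukemic libraries, and 61, 99.7 and 54.3 FPKM in healthy libraries. Pre-leukemic libraries lay below all others, and recovered and healthy libraries overlapped. C1s1 was at 197, 256, 268 and 232 FPKM in recovered libraries, 7.45, 15.8 and 19.9 FPKM in pre-leukemic libraries, and 147, 154 and 147 FPKM in healthy libraries. For C1s1 the 3 groups did not overlap, with recovered on top.

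C4b and C2 are cut by C1s to form the classical C3-cutting enzyme. C4b was at 449, 645, 627 and 468 FPKM in recovered libraries, 1.68, 7.58 and 22.6 FPKM in pre-leukemic libraries, and 137, 166 and 152 FPKM in healthy libraries. The 3 groups stood apart in the same order as for C1s1. C2, the protease of that enzyme, was at 132, 38.4, 169.7 and 86.9 FPKM in recovered libraries, 0, 3.37 and 20.2 FPKM in pre-leukemic libraries, and 48.9, 75.7 and 63 FPKM in healthy libraries. Recovered libraries spread on both sides of the healthy ones. The pre-leukemic mean of C2 was 5.73 FPKM, or 2.84 without pre-leukemic 1.

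C3, on which all pathways meet, and Cfb, the protease factor B of the alternative pathway, follow. C3 was at 426, 583, 376 and 364 FPKM in recovered libraries, 22.7, 40.5 and 75.1 FPKM in pre-leukemic libraries, and 158, 204 and 155 FPKM in healthy libraries. Cfb was at 152, 119.7, 414 and 167 FPKM in recovered libraries, 0, 5.17 and 9.89 FPKM in pre-leukemic libraries, and 74.9, 83.4 and 55.7 FPKM in healthy libraries. Both genes had groups that did not overlap, and recovered 3 had the highest Cfb while recovered 2 had the highest C3.

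Serping1, the C1 inhibitor that blocks C1r and C1s, and Clu, or clusterin, a secreted chaperone that holds back the terminal complex, had the highest healthy levels of the 9 genes. Serping1 was at 961, 615, 653 and 708 FPKM in recovered libraries, 46.4, 136 and 169 FPKM in pre-leukemic libraries, and 907, 901 and 887 FPKM in healthy libraries. The recovered libraries overlapped the healthy ones through recovered 1. Clu was at 629, 383, 852 and 691 FPKM in recovered libraries, 0.138, 1.44 and 7.58 FPKM in pre-leukemic libraries, and 1545, 1167 and 1535 FPKM in healthy libraries. Here the groups did not overlap either, but healthy libraries were on top. By mean FPKM over all 33432 entries, Clu ranked 175 in recovered, 9241 in pre-leukemic and 77 in healthy samples, and Serping1 ranked 156 in recovered, 678 in pre-leukemic and 117 in healthy samples.

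Cfp encodes properdin, the one known positive regulator of the cascade. It was listed at 0 in all 4 recovered libraries, was at 5.21, 16.1 and 28.4 FPKM in pre-leukemic libraries, and was at 2.57, 0.239 and 0.66 FPKM in healthy libraries. Pre-leukemic libraries lay above all others, which is the opposite of the other 8 genes. The healthy mean was 0.927 ± 0.972 FPKM (SD, n = 2), or 1.61 without healthy 2 and 0.239 without the mean of healthy 1 and 3. These are near the size of the 3-read floor for 1 kb.

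**Figure D1:**
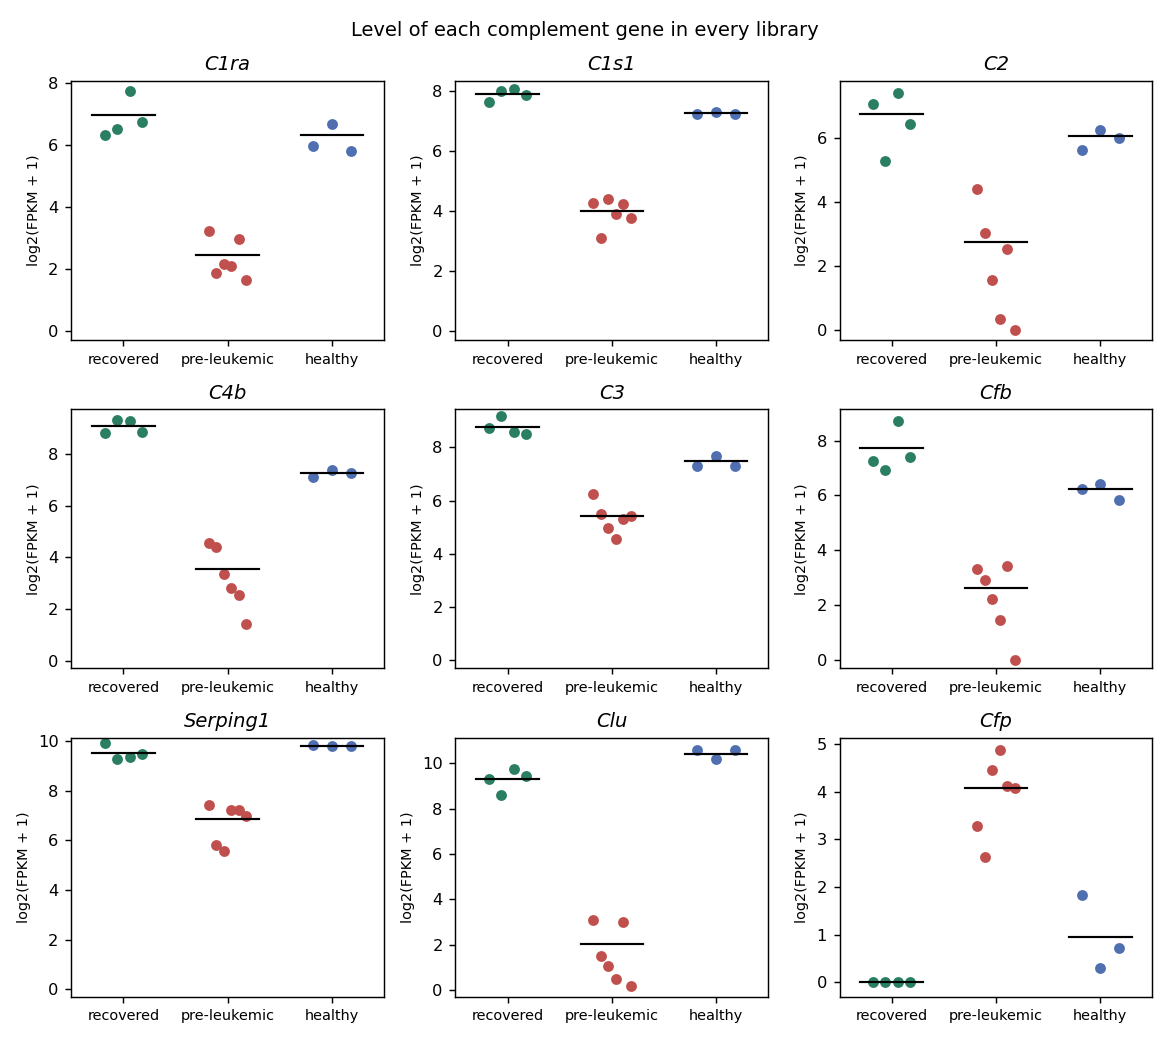
Level of the 9 complement genes in each library, as log2(FPKM + 1) on the y axis, for recovered (4 libraries), pre-leukemic (6) and healthy (3) groups on the x axis. Points are libraries and lines are the log2 of the group's mean FPKM + 1; pre-leukemic points lie below the others in 8 panels and above them in the Cfp panel.

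The first comparison set pre-leukemic against healthy samples. Every one of the 9 genes passed, 8 lower and 1 higher, among 13118 genes of which 13.1% were called lower, 14.2% higher and 27.3% either way. Every pre-leukemic library was below every healthy one for 8 of the 9 genes, as for 20.6% of all genes, and above for 1, as for 23.7%. The lower ones spanned both activating pathways and 2 inhibitors, and the higher one was Cfp. The median change of the 9 genes was -3.96, that of the 14 stromal markers -3.81 and that of all genes 0.2, on the log2(FPKM + 1) scale, which understates changes of low values. Calls are those with a Benjamini-Hochberg adjusted p of limma under 0.05.

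Clu fell furthest, to 3.02 ± 3.41 FPKM in pre-leukemic samples, against 1354 ± 263 in healthy samples, a log2 change of -8.83 ± 0.70 (SE; limma adjusted p = 1.2e-06). The classical proteases C1ra (-3.96 ± 0.54, limma adjusted p = 9.34e-05) and C1s1 (-3.31 ± 0.38, 2.39e-05) fell, and so did C4b (-4.11 ± 0.65, 0.000331) and C2 (-4.06 ± 0.96, 0.00583). Cfb of the alternative pathway fell by 3.99 ± 0.79 (limma adjusted p = 0.0017). Serping1 was at 115 ± 51.5 FPKM in pre-leukemic and 899 ± 3.07 in healthy samples (-3.12 ± 0.44, limma adjusted p = 0.000137). C3 had the smallest fall of the 8, to 42.2 ± 18 FPKM in pre-leukemic samples, against 180.4 ± 33.3 in healthy samples (-2.15 ± 0.39, limma adjusted p = 0.000943). Cfp rose to 15.9 ± 8.34 FPKM in pre-leukemic samples (3.06 ± 0.60, limma adjusted p = 0.00165). Because Cfp passed the filter only with the libraries where it was high, its call is not independent of that filter. Without healthy 2, which leaves a single healthy sample assumed to vary like the other groups, C2 (adjusted p = 0.0775, range over the alternatives 0.000585 to 0.0775) and Cfp (0.0581, 0.000352 to 0.0581) did not pass in limma.

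The second comparison set cells from MSC-treated mice against those of pre-leukemic mice. All 9 genes passed, 8 higher and 1 lower, among genes of which 14.8% were called higher, 25.1% lower and 40.0% either way. Every recovered library was above every pre-leukemic one for 8 of the 9 genes, as for 10.7% of all genes, and below for 1, as for 16.5%. The median change of the 9 was 4.51, that of the stromal markers 3.42 and that of all genes -0.41. In the same samples 13 of 14 stromal markers were higher, and 10 of 10 pan-leukocyte and 12 of 12 neutrophil markers were lower. This comparison shares the pre-leukemic libraries with the first, so the opposite directions are not independent of each other.

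C4b rose to 547 ± 103 FPKM in recovered samples, against 10.7 ± 8.55 in pre-leukemic samples, a log2 change of 5.90 ± 0.52 (SE; limma adjusted p = 8.83e-07). Cfb (5.33 ± 0.62, limma adjusted p = 1.25e-05), C2 (4.58 ± 0.76, 0.000271), C1ra (4.51 ± 0.43, 1.74e-06) and C1s1 (3.96 ± 0.30, 2.52e-07) rose as well. C3 was at 437 ± 101 FPKM in recovered samples and 42.2 ± 18 in pre-leukemic samples (3.41 ± 0.31, limma adjusted p = 1.21e-06). Of the inhibitors, Clu rose by 7.71 ± 0.56 (limma adjusted p = 1.58e-07) and Serping1 by 2.80 ± 0.35 (2.41e-05). Cfp, listed at 0 in every recovered library, was lower (limma adjusted p = 1.83e-05), and no fold change is given for it. All 9 calls held without any one of the 13 libraries.

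The third comparison, which shares samples with both others, set recovered against healthy samples. None of the 9 genes passed, among genes of which 0.518% were called higher, 1.99% lower and 2.51% either way. At an unadjusted p of limma under 0.05 it was 2 of the 9, both higher, against 5.73% of all genes higher, 10.7% lower and 16.5% either way. These were C3 (1.26 ± 0.41, 95% interval 0.37 to 2.15; limma unadjusted p = 0.00875, adjusted p = 0.138) and C4b (1.79 ± 0.69, 0.31 to 3.28; 0.0212, 0.206). In 4 genes (C1s1, C3, C4b and Cfb) every recovered library was above every healthy one, which held for 6.64% of all tested genes. In Clu every recovered library was below every healthy one, which held for 10.7%. The same order in Cfp rests on low healthy values, at 0.239 FPKM in healthy 2 and 0.66 in healthy 3. Both lie under the 3-read floor of a 1 kb transcript, but that of Cfp is 1636 bp, which lowers its floor. Healthy 1, at 2.57 FPKM, lies above. No lower level of Cfp was established.

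The intervals of this comparison are wide. For C1s1 the change was 0.65 (95% interval -0.21 to 1.52), for Cfb 1.34 (-0.45 to 3.13), for C1ra 0.56 (-0.67 to 1.78) and for C2 0.51 (-1.67 to 2.69). Serping1 changed by -0.31 (-1.32 to 0.70) and Clu by -1.13 (-2.73 to 0.47). These genes did not pass in limma, and differences of the size of the intervals were not detectable with 2 healthy samples. With healthy 1 and 3 kept as separate libraries C3 passed (1.32, limma adjusted p = 0.0373, range over the alternatives 0.0373 to 0.529). C4b passed when only recovered and healthy samples were fitted (1.79, limma adjusted p = 0.0442, range 0.0441 to 0.673).

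**Figure D2:**
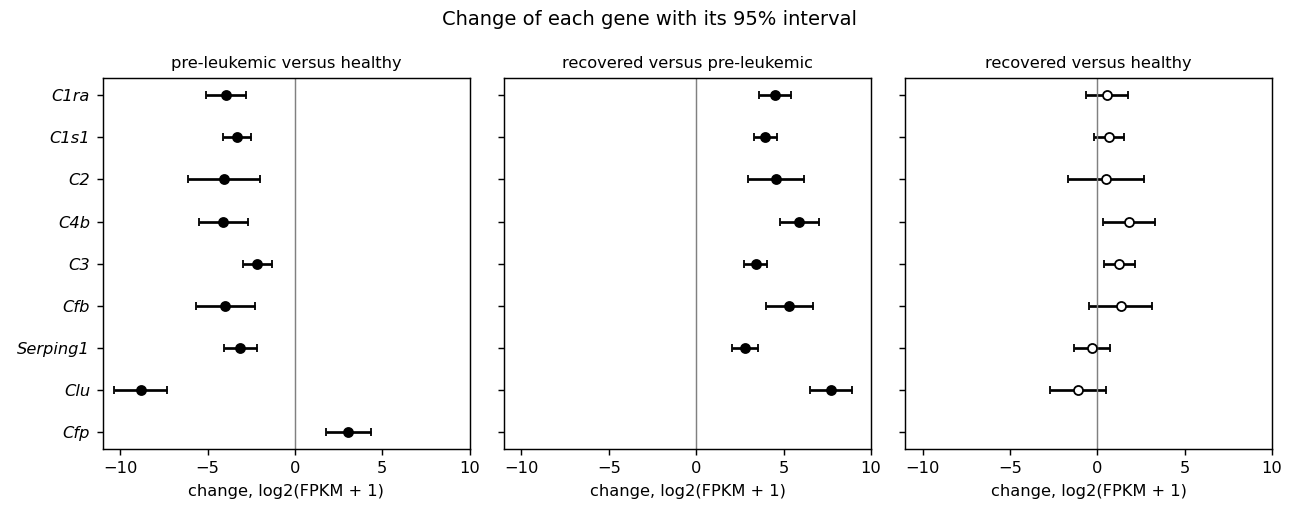
Change of each complement gene in the 3 comparisons, as a log2(FPKM + 1) difference on the x axis with its 95% interval from limma; filled points passed at an adjusted p under 0.05. Cfp is left out of both comparisons of the recovered group, where it was listed at 0; 8 genes are left of 0 in the first panel and right of 0 in the second, and no filled point is in the third.

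The summed level of the 9 genes overlapped between recovered and healthy libraries, while the shares of C1s1, C3, C4b, Cfb and Clu in it did not. The share of Cfp, 0 in recovered and at most 0.0834% in healthy libraries, rests on its low healthy values. The summed FPKM of the 9 genes was 2729 to 3574 in recovered, 137 to 338 in pre-leukemic and 2852 to 3080.3 in healthy libraries. Clu made up 14 to 24.5% of that sum in recovered, 0.0693 to 2.81% in pre-leukemic and 40.9 to 50.3% in healthy libraries. C3 made up 10.5 to 21.4% in recovered, 10.1 to 29.4% in pre-leukemic and 5.09 to 7.15% in healthy libraries. C4b made up 14.8 to 23.6% in recovered, 0.844 to 13.2% in pre-leukemic and 4.44 to 5.84% in healthy libraries. C1s1 made up 6.51 to 9.39% in recovered and 4.76 to 5.41% in healthy libraries, and Cfb 4.39 to 11.6% in recovered and 1.83 to 2.93% in healthy libraries. Thus C1s1, C3, C4b and Cfb held larger shares and Clu a smaller share in each recovered library than in any healthy one. Serping1 held the largest share in each pre-leukemic library, 33.9 to 65.7%, against 29.1 to 31.6% in healthy libraries. Shares of a sum are tied to each other and do not depend on how libraries were scaled.

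**Figure D3:**
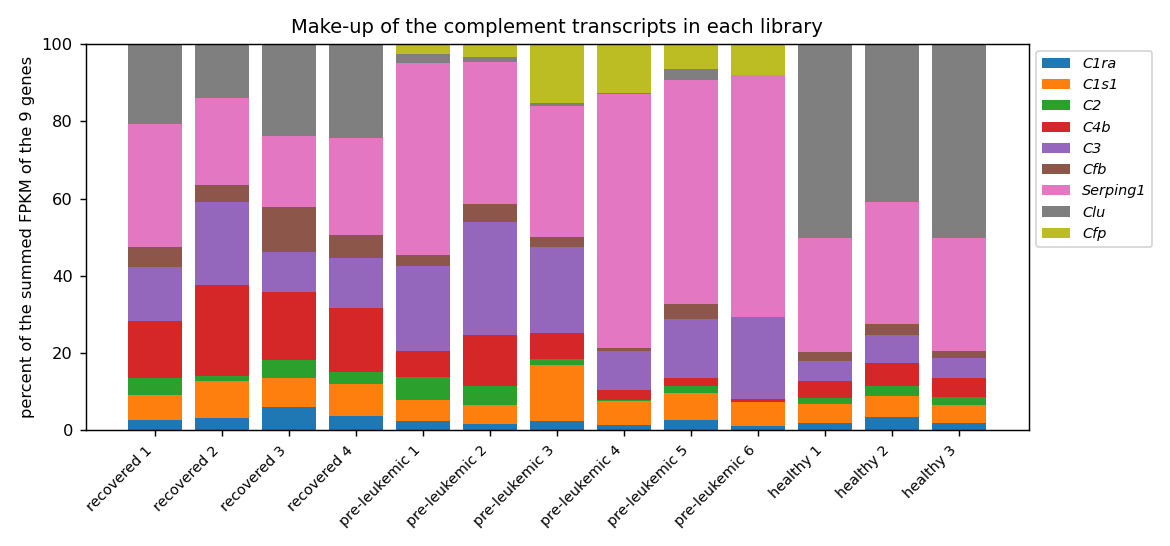
Percent of the summed FPKM of the 9 complement genes that each gene held (y axis) in each of the 13 libraries (x axis). Clu takes 40.9 to 50.3% in healthy libraries and 14 to 24.5% in recovered ones, and Serping1 takes 33.9 to 65.7% in pre-leukemic ones.

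Ratios between related genes, which library scaling leaves alone, were read off in each library as a description. The ratio of C4b to C3 was 1.05, 1.11, 1.67 and 1.29 in recovered libraries, 0.0398 to 0.45 in pre-leukemic libraries, and 0.862, 0.816 and 0.978 in healthy libraries. The 3 groups did not overlap in it. The ratio of C1s1 to C1ra was 1.26 to 2.88 in recovered, 2.2 to 5.97 in pre-leukemic and 1.55 to 2.7 in healthy libraries, and these ranges overlapped. The ratio of Serping1 to C1s1, an inhibitor over the protease it blocks, was 4.88, 2.4, 2.44 and 3.05 in recovered libraries, 2.33 to 10.5 in pre-leukemic libraries, and 6.18, 5.84 and 6.04 in healthy libraries. Each recovered library was below each healthy one, and pre-leukemic libraries lay on both sides. The ratio of Cfb to C2 was 1.15 to 3.12 in recovered libraries, 0.449 to 6.16 in the 5 pre-leukemic libraries with C2 above 0, and 0.885 to 1.53 in healthy libraries, and these ranges overlapped.

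On the log2 scale 8 of the 9 genes, all but C1ra, varied most among the pre-leukemic libraries. The SD of log2(FPKM + 1) there was 1.67 for C2, 1.32 for Cfb, 1.25 for Clu and 1.18 for C4b, and 0.48 for C1s1 and 0.56 for C3. In pre-leukemic 6, C2 and Cfb were listed at 0 and Clu was at 0.138 FPKM, under the 3-read floor. The part of counting error in these spreads was not tested. The healthy SD is over 2 samples, and Cfp has no spread in recovered libraries because all are listed at 0. Pre-leukemic 1 was the highest pre-leukemic library for C1ra, C2, C3, C4b, Serping1 and Clu. It was the highest pre-leukemic library for 6 of the 14 stromal markers, against 4 for pre-leukemic 4 and 3 for pre-leukemic 5. Pre-leukemic 6 was the lowest for C1ra, C2, C4b, Cfb and Clu, but had 125 FPKM of Serping1 and 42.2 FPKM of C3. Among recovered libraries, recovered 3 was the highest for C1ra, C1s1, C2, Cfb and Clu, and recovered 2 for C3 and C4b.

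Deviations of the 12 samples from their group means were compared among the genes, as a description. Over the 28 pairs without Cfp the correlation was positive in 25, with a median of 0.34 and a range of -0.29 to 0.86. Cfb went most closely with C2 (0.86) and Clu (0.86), and C1ra with Cfb (0.77). Serping1 went with none of the others above 0.31. Cfp was negative with 6 of 8, at -0.7 with C3 and 0.49 with C1s1. The points share library scaling and depth.

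Genes whose level followed each complement gene most closely over the 12 samples came from 11835 others outside the complement list used here. Immunoglobulin genes and genes without a standard symbol were left out, so none of them could be found closest to Cfp or any other. The measure was Pearson's r of log2(FPKM + 1), which here mostly follows the gap between pre-leukemic and other samples. C1s1 was closest to Gas6 (0.991) and Apod (0.988), and C1ra to the Notch ligand gene Jag1 (0.989) and Zfhx3 (0.987). Gas6, a ligand of TAM receptors, was at 233 ± 90.1 FPKM in recovered, 3.19 ± 2.18 in pre-leukemic and 140 ± 19.4 in healthy samples. Serping1 was closest to the proteoglycan gene Sdc2 (0.991) and the gelatinase gene Mmp2 (0.989), and Clu to the cartilage gene Chad (0.99) and Ppap2b (0.99). C2 was closest to Aebp1 (0.95) and Cercam (0.947), C3 to Ctns (0.97) and Snx22 (0.97), C4b to Ybx1 (0.976) and Grtp1 (0.975), and Cfb to Myeov2 (0.966) and Ybx1 (0.962). Cfp was closest to Llgl2 (0.982) and Trac (0.979). Trac, the T cell receptor alpha constant gene, was at 128 ± 106 FPKM in pre-leukemic samples and listed at 0 in the other groups.

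Much of the rest of the cascade was listed at 0. Of 49 complement genes in the list used here, 28 were tested, and 16 of the 49 were listed at 0 in every recovered, 14 in every pre-leukemic and 24 in every healthy library. Mbl1, Mbl2, Colec10, Colec11, Masp1, Hc (which encodes C5), C8b, C9, Cfi and Vsig4 were listed at 0 in all 13. The C1q genes, whose product carries C1r and C1s and is made by macrophages, were listed at 0 in healthy libraries. C1qb reached 5.76 FPKM in recovered 1, its only recovered library above 0, and up to 16.5 in pre-leukemic libraries.

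Against healthy samples, pre-leukemic samples had 2 of the 28 tested complement genes higher, 10 lower and 16 neither, with a median change of -0.53. Among all genes 14.2% were higher and 13.1% lower. Most of that count is the 9 genes: of the 19 others 1 was higher and 2 lower, with a median change of -0.02. Outside the 9 genes, the C5a receptor gene C5ar2 fell (-2.19 ± 0.43, limma adjusted p = 0.00153). It was at 1.91 to 6.16 FPKM in healthy and 0 to 0.392 in pre-leukemic libraries, the latter under the 3-read floor of a 1 kb transcript. Itgam, the alpha chain of complement receptor 3 on myeloid cells, rose to 5.63 ± 5.61 FPKM in pre-leukemic samples and was listed at 0 in healthy samples (limma adjusted p = 0.0063). Cfd, the factor D protease, was listed at 0 in pre-leukemic libraries and was at 6.47, 24.4 and 2.54 FPKM in healthy libraries (limma adjusted p = 0.0486), a call that ended in 12 of 24 alternatives (range 0.000116 to 0.402). Without healthy 2 the calls of C5ar2 (adjusted p = 0.064, range 0.00024 to 0.064) and Itgam (0.0708, 0.000899 to 0.0708) ended too.

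Recovered samples, against pre-leukemic samples, had 9 of the 28 higher, 4 lower and 15 neither, with a median change of 0.41. Among all genes 14.8% were higher and 25.1% lower. Of the 19 outside the 9 genes 1 was higher and 3 lower, and their median change was -0.61, of the opposite sign. Cr1l, which encodes the membrane inhibitor Crry, fell to 26.9 ± 18 FPKM in recovered samples, against 86.2 ± 8.12 in pre-leukemic samples (-1.86 ± 0.36, limma adjusted p = 0.00103), a call lost when values were rescaled to TPM (-0.42, limma adjusted p = 0.513; 0.000118 to 0.513 over the alternatives). Fcnb, a ficolin of neutrophil precursors, was listed at 0 in recovered samples and in pre-leukemic 3 and 4, and was at 53.3 to 94.7 FPKM in the other pre-leukemic libraries (limma adjusted p = 0.0193, range 0.00329 to 0.0625). Itgam fell (-2.24 ± 0.46, limma adjusted p = 0.00149), and C5ar2 rose (0.96 ± 0.34, 0.035), a call that 11 of 23 alternatives ended (range 0.00243 to 0.129). C5ar2 was at 0.375 to 1.82 FPKM in recovered and 0 to 0.392 in pre-leukemic libraries. These values lie around or under the 3-read floor of a 1 kb transcript. Against healthy samples none of the 28 passed in recovered samples. At an unadjusted p of limma under 0.05, C3 and C4b were higher there and Cr1l and C5ar2 lower, 4 of 28 genes where 16.5% of all genes reached that p.

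**Figure D4:**
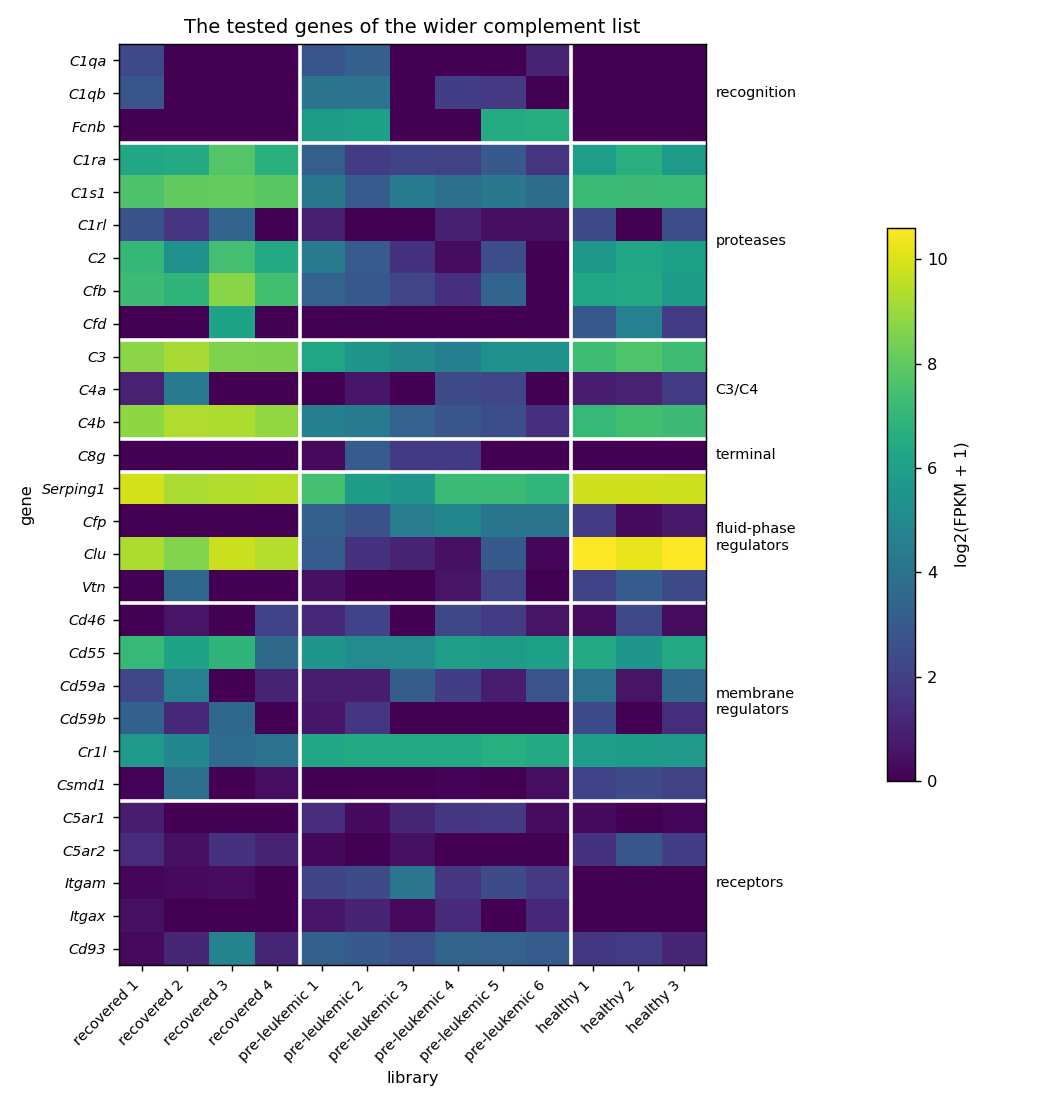
Level of the 28 tested complement genes (rows, grouped by role) in the 13 libraries (columns), as log2(FPKM + 1) by colour. C1ra, C1s1, C2, Cfb, C3, C4b, Serping1 and Clu are bright in recovered and healthy libraries, while Fcnb, Cfp and Itgam stand out in pre-leukemic ones.

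Cytokines and factors known to act on complement genes moved in both directions. Of 10 tested, pre-leukemic samples had 4 higher and 3 lower than healthy samples, where 14.2% of all genes were higher and 13.1% lower. Ifng, the gene of the cytokine interferon gamma, was at 8.26 to 28.6 FPKM in pre-leukemic libraries and listed at 0 in all others (limma adjusted p = 3.93e-05 against healthy samples). Tnf (limma adjusted p = 0.000155) and Osm (0.00597), both listed at 0 in healthy samples, and Nfkb1 (1.26 ± 0.42, 0.0375) rose, though after rescaling to TPM Nfkb1 was at -0.38 without passing. Nfkb1 also lost its call without healthy 2 or any one of pre-leukemic 2 to 6 (adjusted p 0.0551 to 0.108, range 0.00507 to 0.554), and Osm without healthy 2 (0.0664, range 0.000431 to 0.0664). The 3 that fell were Il6, at 3.35 ± 2.86 FPKM in pre-leukemic and 167 ± 22.3 in healthy samples (limma adjusted p = 0.000126), Cebpd (-4.28 ± 0.65, 0.000222) and Cebpb (-3.13 ± 0.48, 0.000259).

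Recovered samples had 4 of these 10 higher than pre-leukemic samples, namely Il6, Cebpb, Cebpd and Stat3, and 4 lower, namely Ifng, Tnf, Osm and Il1b. Among all genes 14.8% were higher and 25.1% lower. Il1b did not pass with arrayWeights (-2.19, limma adjusted p = 0.0872, range 0.00237 to 0.0872). Cebpb, which encodes the transcription factor C/EBP beta, was at 143, 285, 586 and 348 FPKM in recovered libraries, 4 to 8.98 FPKM in pre-leukemic libraries, and 50.1, 64.6 and 53.1 FPKM in healthy libraries. It was the one gene of the 10 called between recovered and healthy samples (2.37 ± 0.51, limma adjusted p = 0.0261), in a comparison where 0.518% of genes were called higher. The call ended when only these groups were fitted (adjusted p = 0.205) and without healthy 2 (0.279), over a range of 0.00445 to 0.279. Recovered 3, with the highest Cebpb, had the highest Cfb, while C3 was highest in recovered 2.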

How the data were processed

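RNA-seq was deposited as 1 table of FPKM values, made by the authors with bcl2fastq, TopHat, Cufflinks 2.2.1 and Cuffnorm on mm10, per the submitters' processing notes. The sources used here name neither the gene annotation nor Cuffnorm's library-size method. Libraries were prepared from polyadenylated RNA with a Nextera XT kit, per the labels' protocols.

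The test was limma 3.58.1 under R 4.3.3 on log2(FPKM + 1), by lmFit and then eBayes with a mean-variance trend. A single fit held all 3 groups. It covered 13118 genes that reached 1 FPKM in 3 or more libraries, and p-values were adjusted over these genes by the Benjamini-Hochberg method. Cfp, Itgam, Fcnb, Ifng, Tnf, Osm, Il1b and several leukocyte markers met this filter only with the pre-leukemic libraries, where they were high. Their calls against pre-leukemic samples are not independent of the filter. Healthy 1 and 3 entered as their mean, so there were 12 samples and 9 residual degrees of freedom. Depth is unknown from counts and was estimated from the step size of low values in 5240 single-transcript genes of 800 bp or longer. That estimate is approximate. Symbols were matched to GENCODE vM21 (32082 of 33433 rows, 1 of them without a name and left out). The steps were tested on simulated data.

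The genes and lists were chosen with earlier results of these data known. Named genes were the 9, complement and regulator-list genes called in a comparison, near-identical copies, and for each of the 9 the 2 most similar genes. Protein sequences were not used here, and some genes of the lists are not reported here. The labels do not say that replicate numbers pair samples, and deviations of same-numbered libraries correlated at -0.019 to 0.034 across genes. Alternatives were quantile normalization, the TPM scale, scaling without immunoglobulin genes, a pseudocount of 0.1, no filter, a filter on a mean of 5 FPKM, a fit of each pair of groups alone, robust eBayes, arrayWeights, separate healthy libraries, a replicate block and leaving out each library. Summaries and plots were made in Python 3.11.15 (pandas 2.3.3, matplotlib 3.10.9, scipy 1.17.1).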

Additional observations from a re-analysis of the deposited data

How the results depend on the processing

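All 9 complement genes kept their direction in both comparisons of pre-leukemic samples under all 24 alternatives, and 7 to 9 of them passed against healthy samples and 9 of 9 in recovered against pre-leukemic samples. Between recovered and healthy samples 0 or 1 of the 9 passed: 1 with healthy 1 and 3 separate (C3), 1 under the replicate block (C4b, 2.02, adjusted p = 0.0441) and 1 with only the groups compared (C4b), and the same counts of 1 held for the wider complement list. The block has no pairing behind it in the labels. Leaving out 1 library gave 7 to 9, 9 to 9 and 0 to 0 of the 9 genes, 7 to 14, 12 to 15 and 0 to 2 of the wider list, and 1580 to 4114, 4655 to 5264 and 6 to 679 of all genes, for pre-leukemic versus healthy, recovered versus pre-leukemic and recovered versus healthy. The counts of 1580 and 6 genes came without healthy 2, and the 679 without recovered 1. The wider list's calls between recovered and healthy samples were Cr1l without recovered 1, Vtn and Csmd1 without recovered 2, and Cfd without recovered 3, each lower.

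Recovered versus healthy called 329 genes, and 206 with quantile normalization, 502 on the TPM scale, 122 with a mean of at least 5 FPKM, 163 with arrayWeights, 767 with separate healthy libraries and 103 with only the groups compared. The TPM scale put the median change of all genes at -1.12 in place of 0.2 for pre-leukemic versus healthy (787 higher and 4284 lower, in place of 1858 and 1725) and at 0.62 in place of -0.41 for recovered versus pre-leukemic (3814 and 1192, in place of 1945 and 3299). Quantile normalization gave 2456 and 2439 there, and scaling without immunoglobulin genes 1686 and 4095. Nfkb1 reversed on the TPM scale (-0.38). The TPM scale divides each value by its library's summed FPKM. That sum was 624511 to 842529 in recovered, 1225061 to 2986391 in pre-leukemic and 601969 to 626347 in healthy libraries. The cause of the shifts between settings was not tested. The healthy group holds 2 samples.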
